A study of Arabidopsis thaliana with 32 samples.

Results

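The loci described here are those whose transcripts were lower in 8-day-old than in 4-day-old roots of Arabidopsis thaliana in every setting compared, in both genotypes and both places of growth. A locus was taken where the authors listed it in all 4 of their age tables and its 4-day level was at least 1.5 times its 8-day level in each. That left 94 loci, of which 12 were left out by name (genes for phosphate, nitrate and iron supply and the Rubisco small subunits RBCS1B, RBCS2B and RBCS3B), so 82 members remained of 4802 loci listed in any table. The selection used the age values themselves, so the age folds below are a description with no test attached. For comparison, 442 loci were listed in all 4 age tables, and 194 of them were at least 1.5-fold higher at 8 days in each.

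Seedlings were wild-type Col-0 or Sku6, a line that carries the sku6 allele of SPIRAL1 in place of the wild-type gene, 4 or 8 days old, and were grown in light on solid medium plates in the Veggie plant growth unit either aboard the International Space Station or in a chamber on the ground that ran 48 h behind. Each of the 8 groups had 4 samples, and every sample was a pool of dissected whole roots fixed in RNAlater, 5 to 8 roots at 4 days and 2 to 3 roots at 8 days. Age therefore cannot be told apart from the number of roots pooled, nor flight from anything else that differed between the station and the ground set. All levels are the authors' values for a whole group in FPKM (fragments scaled to the length of the transcript and to the mapped fragments of a library), with no value per sample, so no spread between replicates can be given and the depth is unknown. A locus is called listed where it appears in the authors' deposited table of a comparison, which holds only loci with an authors' q-value of at most 0.05. Levels are given throughout in the order ground Col-0, flight Col-0, ground Sku6 and flight Sku6. As a check of the genotype labels, SPR1 (SPIRAL1) stood at 7.21 to 13.0 FPKM in the Sku6 groups and at 1210.0 to 1422 FPKM in the Col-0 groups in the authors' deposited tables.

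A seedling first lives on oil and protein stored in the seed. Isocitrate lyase and other enzymes of the glyoxylate cycle turn fatty acids into sugar during that phase, inside peroxisomes. When leaves become green, peroxisomes take on photorespiration instead, in which glycolate oxidase, glyoxylate aminotransferases and hydroxypyruvate reductase recover carbon that Rubisco lost to oxygen. A lengthening root also changes its make-up, since the tip with its stem cells is a smaller share of the whole organ and differentiated tissue a larger one. Roots are rich in small secreted proteins as well, such as protease inhibitors, defensins and lipid transfer proteins.

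Upstream sequences are shown for members on which the results below turn: ECS1, with the largest mean age fold over the 4 tables, the adjacent pair GOX2 and GOX1, ICL and RMA2, listed higher in flight in both genotypes at 4 days, and AT1G73120, with the strongest deposited decrease in flight of any member. Each is the 250 bases before the annotated gene start on the gene's own strand, from RefSeq (TAIR10.1), written 5′ to 3′. Capitals mark any match to 7 motifs searched on both strands, the G-box CACGTG, the telo-box AAACCCTA, the site II element TGGGCC, the core of the RY element CATGCA, the abscisic acid response type ACGTGGC, the W-box type TTGACC and the TATA type TATAAA. Of these the G-box and the abscisic acid response type can overlap. The ECS1 region is chr1:11310747-11310996, the GOX2 region chr3:4818001-4818250 and the GOX1 region chr3:4821141-4821390, all on the plus strand. The ICL region is chr3:7656054-7656303, the AT1G73120 region chr1:27498063-27498312 and the RMA2 region chr4:14009288-14009537, all on the minus strand.
ECS1: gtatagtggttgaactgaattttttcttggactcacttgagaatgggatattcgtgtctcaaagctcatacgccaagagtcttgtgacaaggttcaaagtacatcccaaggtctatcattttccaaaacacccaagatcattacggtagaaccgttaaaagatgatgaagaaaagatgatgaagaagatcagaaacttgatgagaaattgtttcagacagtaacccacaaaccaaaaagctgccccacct
GOX2: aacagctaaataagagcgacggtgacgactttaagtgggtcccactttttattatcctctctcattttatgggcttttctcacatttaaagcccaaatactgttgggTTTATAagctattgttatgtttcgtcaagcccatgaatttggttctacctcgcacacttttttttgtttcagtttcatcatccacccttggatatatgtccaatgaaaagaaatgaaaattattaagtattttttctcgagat
GOX1: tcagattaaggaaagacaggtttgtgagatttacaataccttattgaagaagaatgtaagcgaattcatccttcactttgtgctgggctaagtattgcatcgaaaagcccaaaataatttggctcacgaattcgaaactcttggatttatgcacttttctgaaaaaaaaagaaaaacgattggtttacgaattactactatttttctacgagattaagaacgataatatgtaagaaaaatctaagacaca
ICL: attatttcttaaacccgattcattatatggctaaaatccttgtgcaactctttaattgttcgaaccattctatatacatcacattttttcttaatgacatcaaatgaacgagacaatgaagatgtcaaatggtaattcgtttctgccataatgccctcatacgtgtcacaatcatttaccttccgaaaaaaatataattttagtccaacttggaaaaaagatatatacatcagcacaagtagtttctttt
AT1G73120: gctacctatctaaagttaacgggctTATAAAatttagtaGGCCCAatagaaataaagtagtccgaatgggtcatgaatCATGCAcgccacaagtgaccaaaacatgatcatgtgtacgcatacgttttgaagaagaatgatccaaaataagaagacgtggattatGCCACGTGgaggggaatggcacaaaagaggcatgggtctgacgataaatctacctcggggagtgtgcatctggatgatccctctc
RMA2: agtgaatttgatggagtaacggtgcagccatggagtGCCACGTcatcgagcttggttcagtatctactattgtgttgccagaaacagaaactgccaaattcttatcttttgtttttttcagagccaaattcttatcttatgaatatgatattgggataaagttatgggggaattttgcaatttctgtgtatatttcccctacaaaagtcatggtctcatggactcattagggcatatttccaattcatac

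The window of AT1G73120 held 5 of the 7 motifs, with TATAAA 225, TGGGCC 211, CATGCA 172, ACGTGGC 85 and CACGTG 83 bases before the start, the last pair overlapping. RMA2 held ACGTGGC 214 bases and GOX2 held TATAAA 143 bases before the start. The windows of ECS1, GOX1 and ICL held none of these letters. A match is a description of the letters and not evidence of a bound factor.

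Being both listed and at least 1.5-fold lower at 8 days was uncommon among all loci the authors tested. How many unlisted loci were 1.5-fold lower is unknown. The listed and lower state is counted here. It held for 614 of 19905 loci in ground Col-0 (3.08%), 371 of 20007 in flight Col-0 (1.85%), 481 of 19852 in ground Sku6 (2.42%) and 564 of 19720 in flight Sku6 (2.86%), and for every member by construction. The median fold of the members was 2.40, 2.40, 2.75 and 2.67 in these 4 tables. It was 1.54, 1.54, 1.52 and 1.72 for all loci listed as lower at 8 days. Those loci had no lowest fold to reach, while members needed 1.5-fold in each table. The higher medians of the members thus follow in part from the rule. At least 2-fold in all 4 tables were 36 members, and at least 4-fold in all 4 were 7: ECS1, AT2G04460, AT1G09310, the merged locus GRP3S/GRP-3, MLP168, GOX1 and AT4G37850. In 80 members the lowest of the 4 groups at 4 days lay above the highest of the 4 groups at 8 days, and the exceptions were AT2G39530 and TIP2;3. The rule used these same values and favours such a separation. The share over other loci was not worked out, so the count only describes the members.

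**Figure D1:**
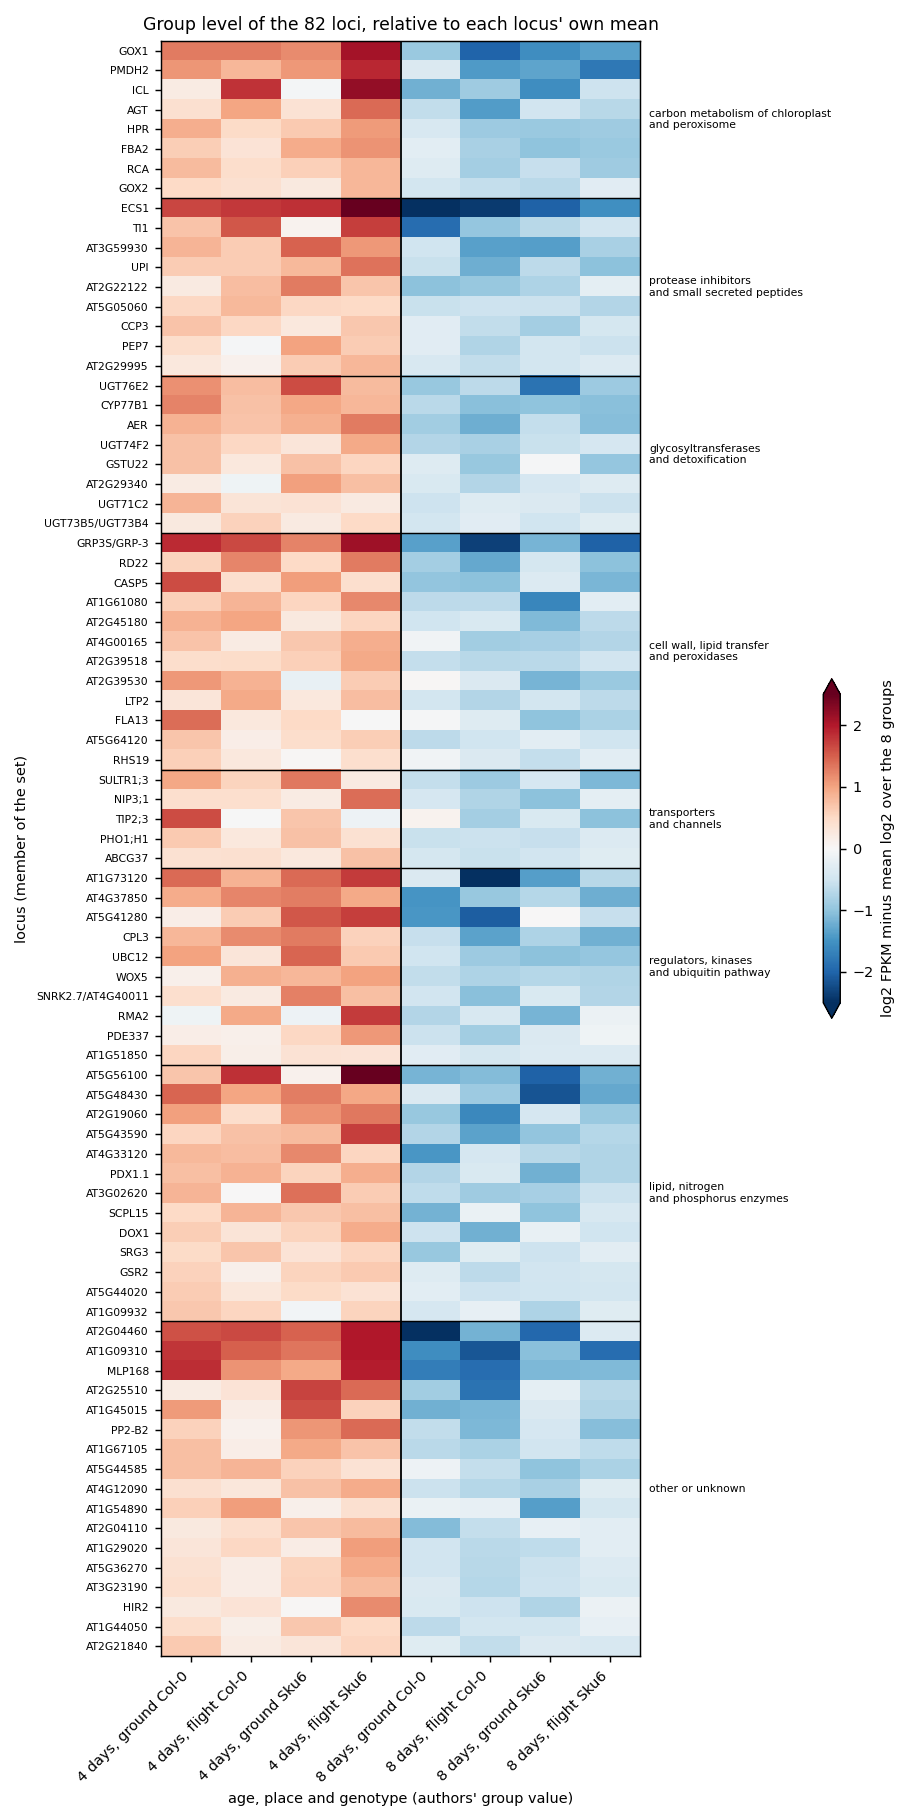
Group level of each of the 82 loci (rows, grouped by role) in the 8 groups (columns), as log2 FPKM minus the locus's own mean log2 over the groups, with red above and blue below that mean. The columns at 4 days are redder than those at 8 days in nearly every row, and in 80 rows the lowest 4-day group exceeded the highest 8-day group. The loci were selected on these values, so the pattern is a description.

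The members spanned a wide range of abundance. Their 4-day levels ran from 1.59 to 1777 FPKM, the median of the members' mean 4-day level was 29.3 FPKM, and 16 members averaged at least 100 FPKM. The steepness also varied between tables for a single locus. The ratio of a member's highest to its lowest fold had a median of 1.66 and ran from 1.04 to 5.70, and it exceeded 2 for 28 members while 26 stayed within 1.5. The highest of the 4 folds fell in flight Sku6 for 32 members, ground Sku6 for 22, ground Col-0 for 17 and flight Col-0 for 11. The fold was larger in flight than on the ground for 50 members in Col-0 and 52 in Sku6, and larger in Sku6 than in Col-0 for 49 members on the ground and 59 in flight. These differences in fold have no test, because no spread between samples was in hand. The matching counts over other loci were not worked out, so these only describe the members. Over all loci listed as lower at 8 days the median fold was largest in flight Sku6, at 1.72.

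**Figure D2:**
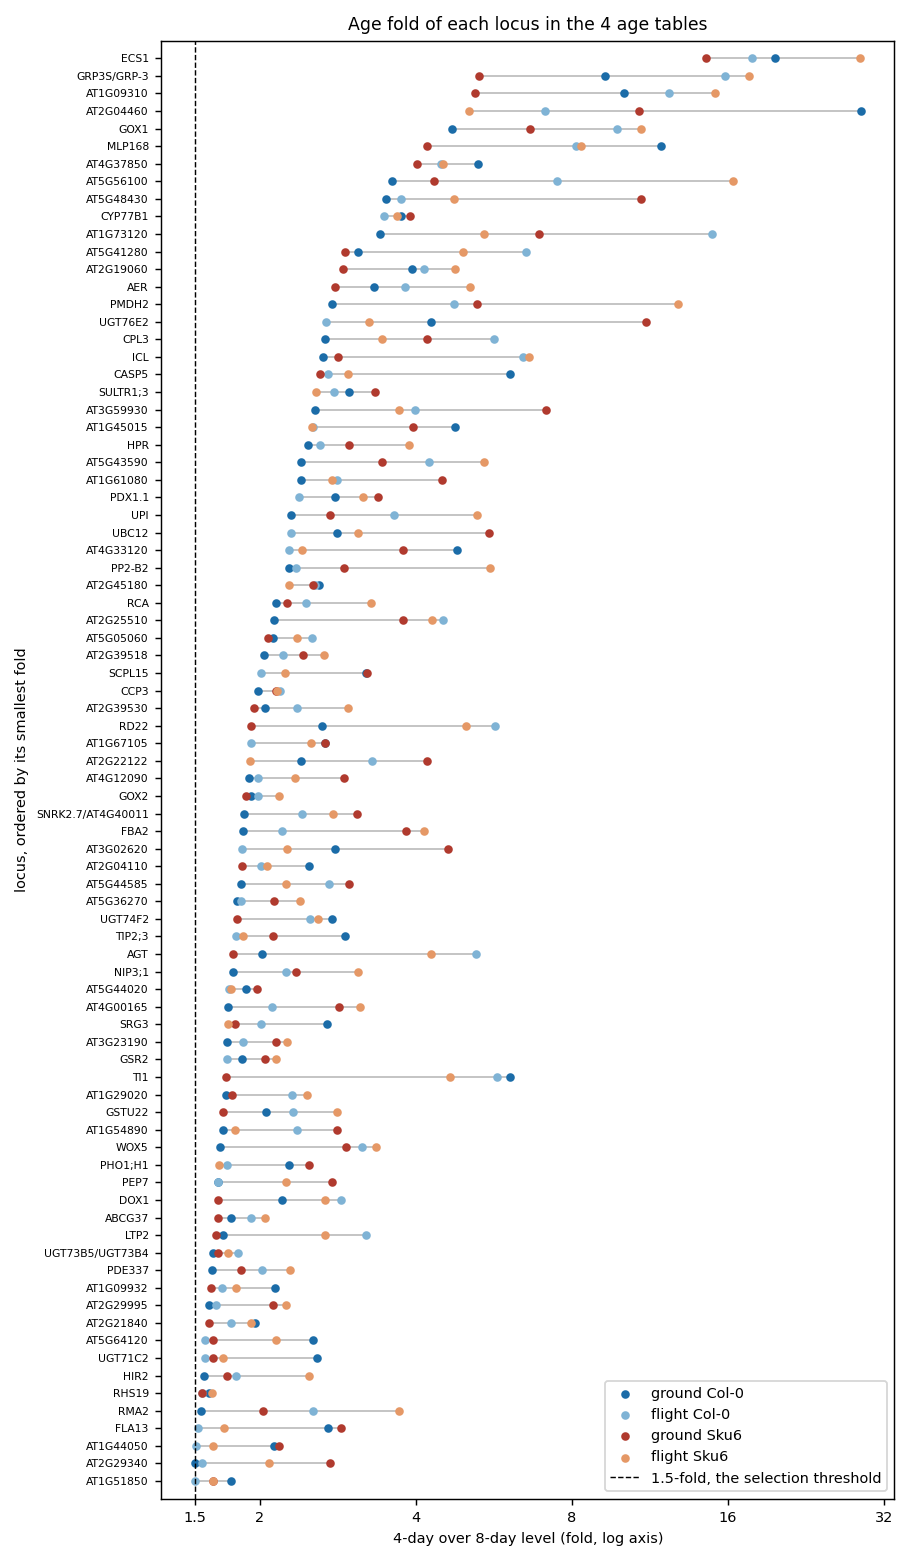
Fold of the 4-day over the 8-day level for each locus in the 4 age tables (coloured points, log axis), ordered by the smallest of its 4 folds, with the selection threshold of 1.5 as a dashed line and a grey bar from lowest to highest fold. ECS1 is at the top with folds of 19.7, 17.8, 14.5 and 28.8, and RHS19 near the bottom has nearly equal folds.

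Just inside the threshold were AT2G29340, AT1G51850 and AT1G44050 with smallest folds of 1.5, 1.5 and 1.51. Just outside were AT4G12545, PAD3 (the last enzyme of camalexin synthesis) and AT5G58900 with 1.49, 1.49 and a value that rounds up to 1.5.

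Among enzymes of carbon metabolism in chloroplasts and peroxisomes, 8 were members, with a median mean fold (the geometric mean over the 4 tables) of 2.97. GOX1 (AT3G14420; TAIR10.1 chromosome 3, 4821391 to 4824178, plus strand) encodes a glycolate oxidase and had levels of 7.73, 7.71, 7.14 and 13.4 FPKM at 4 days and 1.65, 0.788, 1.07 and 1.23 FPKM at 8 days. GOX2 (AT3G14415; 4818251 to 4821013), its neighbour 377 bases upstream and a second glycolate oxidase, had 38.6, 36.2, 32.4 and 48.9 FPKM at 4 days and 20.0, 18.2, 17.2 and 22.5 FPKM at 8 days. The adjacent genes lie on the same strand, with folds of 4.70, 9.79, 6.65 and 10.9 for GOX1 and 1.93, 1.99, 1.88 and 2.18 for GOX2. As in all 8 of these members, the flight Sku6 roots had the highest 4-day level of both.

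The other photorespiratory members were HPR, hydroxypyruvate reductase, AGT, the glyoxylate aminotransferase that uses serine or alanine, and PMDH2, a peroxisomal malate dehydrogenase. HPR levels were 7.76, 5.77, 6.50 and 8.67 FPKM at 4 days and 3.13, 2.2, 2.18 and 2.23 FPKM at 8 days. AGT levels were 8.85, 13.3, 8.57 and 17.8 FPKM at 4 days and 4.39, 2.55, 4.82 and 4.14 FPKM at 8 days, and its fold was larger in flight (5.22 and 4.29) than on the ground (2.02 and 1.78). PMDH2 was scarce, at 3.40, 2.82, 3.34 and 5.85 FPKM at 4 days and 1.23, 0.593, 0.636 and 0.457 FPKM at 8 days, and its fold was among the 5 most unequal, from 2.76 in ground Col-0 to 12.8 in flight Sku6.

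ICL, isocitrate lyase of the glyoxylate cycle, had 4.38, 13.2, 3.65 and 17.4 FPKM at 4 days and 1.65, 2.04, 1.29 and 2.63 FPKM at 8 days. Both flight groups at 4 days stood well above both ground groups, while all 4 groups at 8 days were below 3.65 FPKM, the lowest 4-day level. RCA, which reactivates Rubisco, had 35.3, 27.9, 30.8 and 36.3 FPKM at 4 days and 16.4, 11.3, 13.7 and 11.1 FPKM at 8 days. FBA2, a plastid fructose-bisphosphate aldolase, had 61.9, 50.8, 76.8 and 87.6 FPKM at 4 days and 33.3, 23.0, 20.1 and 21.1 FPKM at 8 days, with larger folds in both Sku6 tables (1.86, 2.21, 3.83 and 4.15). For RCA the 4-day groups lay between 27.9 and 36.3 FPKM, and the folds were 2.15, 2.46, 2.26 and 3.28.

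**Figure D3:**
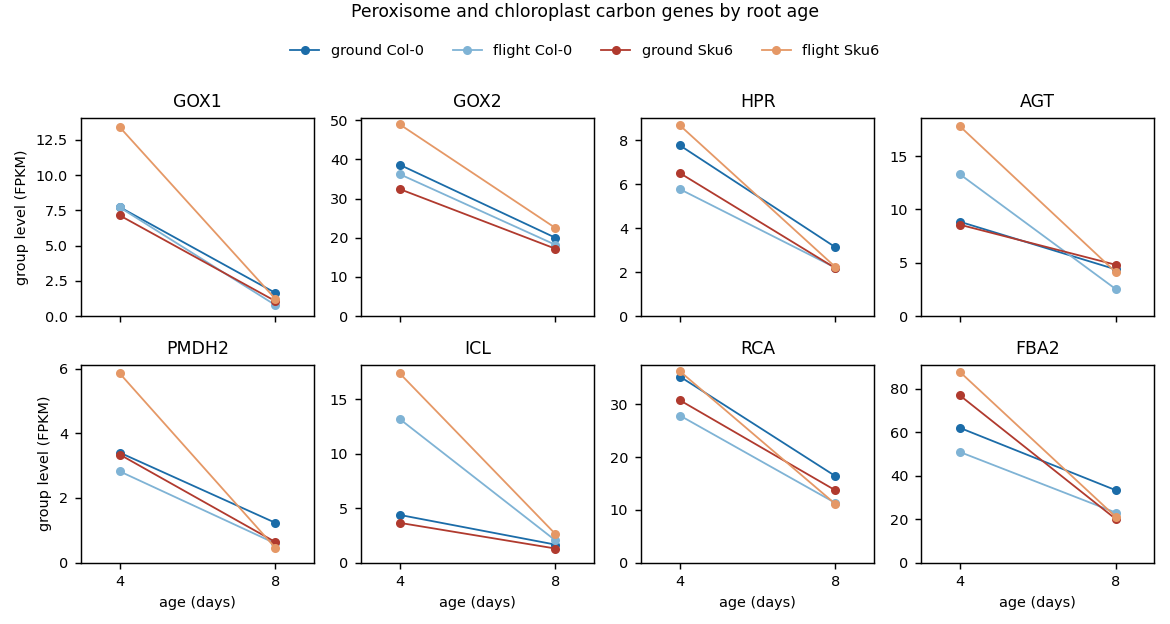
Group level in FPKM (linear axis from 0) of the 8 carbon metabolism members at 4 and 8 days, one line per genotype and place. Every line falls with age, and the flight Sku6 line starts highest in all 8 panels, for example at 13.4 FPKM for GOX1, 17.4 for ICL and 36.3 for RCA.

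Levels of green tissue markers are given beside these members. In the authors' deposited age tables the Rubisco small subunits RBCS1B, RBCS2B and RBCS3B together stood at 57.4, 59.4, 71.9 and 150.4 FPKM at 4 days and at 8.99, 7.43, 6.50 and 9.83 FPKM at 8 days. These 3 genes met the selection rule and were left out by name, so their fall was fixed by the rule. Of 14 genes of photosynthetic shoot tissue, 3, 6, 9 and 9 were listed as lower at 8 days in the 4 tables and none as higher. The 3 of ground Col-0 were those same RBCS genes, with RBCS1A and every light-harvesting gene of the list not listed there. What part green tissue has in the fall of the carbon metabolism members was not tested. None of 13 genes of seed storage, a mark of seed remains, was listed in any of the 12 tables. In pooled whole roots, fewer cells of a type and less RNA per cell cannot be told apart, here and for every member below.

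Pathway lists place these members among their neighbours. Of 19 genes of photorespiration, 8, 5, 7 and 6 were listed as lower at 8 days, and 5 of them (GOX1, GOX2, AGT, HPR and PMDH2) in all 4 tables. GDCH, a subunit of the mitochondrial glycine decarboxylase, was listed as higher at 8 days in ground Col-0 and as lower in flight Sku6. Of 14 genes of carbon fixation, 6, 6, 7 and 8 were lower and none higher. Of 16 genes of fat reserve use, 7, 4, 2 and 3 were lower, and ICL and PMDH2 were so in all 4 tables, while PCK1, for a gluconeogenic carboxykinase, was higher in both ground tables. The background for a listing as lower at 8 days at any fold was 5.54%, 3.45%, 4.67% and 4.43% of loci tested. In each table GOX1, GOX2, AGT, HPR, PMDH2, ICL, RCA, FBA2, RBCS1B, RBCS2B and RBCS3B were lower because the selection rule required it. The counts that hold them were therefore partly fixed by the rule. The photorespiration and carbon fixation lists were also drawn up after members' values had been seen, so their counts are no independent evidence.

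Protease inhibitors and small secreted or cysteine-rich proteins made up 9 members, with a median mean fold of 2.83. ECS1 (AT1G31580; chromosome 1, 11310997 to 11311989, plus strand), a small protein of 95 residues reported in cell walls, had the largest mean fold of all members, 19.6. Its levels were 11.8, 12.6, 13.2 and 37.1 FPKM at 4 days and 0.598, 0.708, 0.913 and 1.29 FPKM at 8 days. In Col-0 and in ground Sku6 the 4-day level stayed between 11.8 and 13.2 FPKM, and flight Sku6 stood apart at 37.1 FPKM. A stretch of 299 bases of ECS1 was 92.3% identical to AT1G06447, so reads could be shared between the 2.

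AT3G59930 (chromosome 3, 22139492 to 22140320, minus strand), a defensin-like protein, was the most abundant member, with 1162, 1001, 1777 and 1354 FPKM at 4 days and 454, 252, 249 and 364 FPKM at 8 days. Its fold ranged from 2.56 in ground Col-0 to 7.14 in ground Sku6, the group with the highest 4-day and the lowest 8-day level. It matches AT5G33355 at 96.4% over 439 bases, and its level may include reads of that copy. UPI, a serine protease inhibitor of the potato inhibitor I family, had 396, 396, 443 and 650.4 FPKM at 4 days and 173, 109, 162 and 124 FPKM at 8 days. TI1, a trypsin inhibitor, had 43.0, 77.0, 27.9 and 87.6 FPKM at 4 days and 7.07, 13.4, 16.2 and 18.8 FPKM at 8 days, and in ground Sku6 its fold of 1.72 was the smallest of its 4.

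CCP3, a serpin-type protease inhibitor, had nearly equal folds in the 4 tables, 1.99, 2.19, 2.15 and 2.16. AT5G05060, of the cystatin fold, had 2.12, 2.53, 2.08 and 2.36, but is 98.8% identical over 420 bases to AT5G05040. PEP7, the precursor of a peptide of the family that amplifies immune responses, had 196, 141, 291 and 223 FPKM at 4 days and 118, 85.1, 105 and 98.8 FPKM at 8 days. AT2G29995, annotated as similar to the PSY3 peptide precursor, had 263, 235, 338 and 387 FPKM at 4 days and 165, 143, 159 and 172 FPKM at 8 days, and AT2G22122, an uncharacterised protein of 60 residues, had 216, 316, 456 and 299 FPKM at 4 days and 90.3, 95.8, 108 and 156 FPKM at 8 days. For AT2G22122 the 456 FPKM of ground Sku6 at 4 days was the highest and the 216 FPKM of ground Col-0 the lowest of the 4-day groups.

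Genes of the cell surface, lipid transfer and peroxidases gave 12 members, with a median mean fold of 2.36. GRP3S/GRP-3 is a locus that merges 2 genes for glycine-rich proteins, and its levels were 133, 115, 86.2 and 158 FPKM at 4 days and 14.3, 7.27, 16.3 and 8.98 FPKM at 8 days. CASP5 (chromosome 5, 4967011 to 4968092, plus strand), a scaffold protein of the membrane domain under the Casparian strip of the endodermis, had 38.1, 16.5, 25.4 and 16.5 FPKM at 4 days and 6.27, 6.08, 9.69 and 5.59 FPKM at 8 days. Its 38.1 FPKM in ground Col-0 roots at 4 days was the highest and both flight groups at 16.5 FPKM were the lowest of that age. AT2G39518 and AT2G39530, annotated to the same protein family as CASP5, had mean folds of 2.33 and 2.30, and AT2G39530 had 204, 178, 84.7 and 151 FPKM at 4 days and 99.4, 75.5, 43.4 and 51.0 FPKM at 8 days.

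CASP5 fell with age while other genes of its list were listed as higher at 8 days. CASP1, CASP2 and CASP4, also of that list, were not listed at all. Of 11 genes of endodermis and suberin, 2, 6, 5 and 6 were listed as higher at 8 days (against 5.69%, 3.33%, 4.77% and 3.92% of loci tested), among them the suberin genes GPAT5 and CYP86A1 in all 4 tables. CASP5 was the one member listed as lower in all 4. ESB1, a dirigent-domain protein of the Casparian strip, was listed as lower in ground Col-0 and as higher in the other 3 tables.

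FLA13, a fasciclin-like arabinogalactan protein, had 141, 64.1, 75.7 and 52.7 FPKM at 4 days and 51.9, 42.3, 26.4 and 30.9 FPKM at 8 days. RHS19, a peroxidase gene named for its expression in root hairs, had the most equal folds of all members, 1.60, 1.55, 1.55 and 1.62. Of 9 root hair genes on a list that does not hold RHS19, 4 (COBL9, EXPA18, PRP3 and PRP1) were listed as lower at 8 days in ground Col-0, PRP3 alone in ground Sku6 and none in either flight table. LTP2, a lipid transfer protein, had 177, 275, 171 and 243 FPKM at 4 days and 104, 85.5, 104 and 91.1 FPKM at 8 days, with the fold near 1.7 on the ground and 3.21 and 2.67 in flight. RD22, a BURP-domain protein known as a dehydration-responsive gene, had 10.8, 17.1, 10.3 and 18.0 FPKM at 4 days and 4.07, 3.01, 5.35 and 3.58 FPKM at 8 days and the same order of folds. The lipid-transfer-type proteins AT2G45180 and AT4G00165 had folds of 2.60, 2.56, 2.54 and 2.28 and 1.74, 2.11, 2.84 and 3.12. AT4G00165 overlaps AT4G00163 on the opposite strand over 648 bases, and these reads cannot be assigned to a strand.

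Enzymes that attach sugars or detoxify small molecules gave 8 members, with a median mean fold of 2.29. UDP-glycosyltransferases were 4 of the 82 members (4.88%) and 23 of the 3985 loci in any age table (0.577%), shares that were not tested. UGT76E2 had the steepest of their falls, 11.5, 8.90, 16.1 and 8.94 FPKM at 4 days and 2.68, 3.30, 1.45 and 2.75 FPKM at 8 days, and one of the 5 most unequal sets of folds, 11.1 in ground Sku6 and 2.69 to 4.29 elsewhere. UGT74F2, which attaches glucose to salicylic acid, had 27.2, 23.5, 20.2 and 31.8 FPKM at 4 days and 9.82, 9.41, 11.2 and 12.3 FPKM at 8 days. UGT71C2 and the merged pair UGT73B5/UGT73B4 had mean folds of 1.83 and 1.71. AER, an alkenal reductase, had 13.6, 12.3, 13.8 and 18.3 FPKM at 4 days and 4.10, 3.22, 4.94 and 3.59 FPKM at 8 days, but shares 91.3% of 1011 bases with AT5G16980. CYP77B1, a cytochrome P450, was lowly expressed and had nearly equal folds of 3.74, 3.47, 3.90 and 3.68. GSTU22, a glutathione transferase, had 59.9, 43.5, 60.0 and 52.5 FPKM at 4 days and 29.0, 18.7, 35.3 and 18.6 FPKM at 8 days.

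Transporters and channels gave 5 members, with the smallest median mean fold of the groups, 2.13. TIP2;3 (AT5G47450; chromosome 5, 19248249 to 19249622, minus strand), a channel of the vacuolar membrane that passes water and ammonia, had 196, 63.0, 103 and 58.1 FPKM at 4 days and 67.1, 35.0, 48.5 and 31.3 FPKM at 8 days. The 8-day level of ground Col-0, 67.1 FPKM, exceeded the 4-day levels of both flight groups, so the ages overlapped once groups were compared across settings. SULTR1;3, a sulfate transporter, had 3.16, 2.37, 3.99 and 1.88 FPKM at 4 days and 1.06, 0.852, 1.2 and 0.734 FPKM at 8 days. PHO1;H1, a relative of the phosphate exporter PHO1, had folds of 2.28, 1.73, 2.49 and 1.67, and ABCG37, an exporter of the plasma membrane, 1.76, 1.93, 1.66 and 2.05. NIP3;1, of the aquaporin family, had 9.31, 9.25, 8.02 and 18.2 FPKM at 4 days and 5.22, 4.10, 3.41 and 5.87 FPKM at 8 days, and 413 of its bases match AT2G21020 at 95.9%.

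Regulators, kinases and proteins of the ubiquitin pathway gave 10 members, with a median mean fold of 2.97. WOX5 (chromosome 3, 3527280 to 3528440, plus strand), the homeobox gene expressed in the quiescent centre of the root stem cell niche, had 15.8, 26.6, 25.7 and 28.9 FPKM at 4 days and 9.37, 8.46, 8.74 and 8.60 FPKM at 8 days. All 8-day groups lay within 8.46 to 9.37 FPKM, and the smaller fold of ground Col-0 came with the lowest 4-day level. Of 14 genes of the dividing root tip, WOX5 was the one listed as lower at 8 days in any table, and CDKB2;2, a mitotic cyclin-dependent kinase, was listed as higher in ground Col-0. By annotation keywords, no histone, cell cycle or ribosomal protein gene was a member. Histone and cell cycle genes made up 0.652% and ribosomal genes 4.22% of loci in any age table. Those loci include both directions and any fold, and the difference was not tested.

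CPL3, a single-repeat MYB protein of the family that patterns epidermal cells, had 44.9, 56.7, 62.0 and 37.5 FPKM at 4 days and 16.8, 10.0, 14.7 and 10.9 FPKM at 8 days. AT4G37850, a bHLH transcription factor, had 9.47, 11.6, 12.2 and 9.62 FPKM at 4 days and 1.80, 2.59, 3.03 and 2.13 FPKM at 8 days, and its fold stayed between 4.03 and 5.27. Transcription factors as a whole were 3 of the 82 members (3.66%), against 5.67% of loci in any age table, a difference that was not tested. AT1G73120 (chromosome 1, 27497176 to 27498062, minus strand), annotated to the F-box/RNI superfamily, had 37.7, 25.9, 37.9 and 47.8 FPKM at 4 days and 11.0, 1.74, 5.48 and 8.80 FPKM at 8 days. The 8-day level ran from 1.74 FPKM in flight Col-0 to 11.0 in ground Col-0, while the 4-day level varied less.

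RMA2, a RING-type ubiquitin ligase anchored in the endoplasmic reticulum, had 26.5, 54.9, 26.1 and 96.8 FPKM at 4 days and 17.2, 21.6, 12.8 and 26.0 FPKM at 8 days. Both flight groups at 4 days were above both ground groups. UBC12, a ubiquitin-conjugating enzyme, had folds of 2.82, 2.30, 5.54 and 3.09. AT5G41280, annotated as related to receptor-like kinases, had 6.89, 9.53, 18.0 and 20.3 FPKM at 4 days and 2.23, 1.46, 6.18 and 4.12 FPKM at 8 days, with both Sku6 groups above both Col-0 groups at each age. SNRK2.7, a kinase of the SNF1-related family counted together with AT4G40011, had folds of 1.87, 2.41, 3.08 and 2.77. PDE337, a VQ-motif protein, had folds of 1.62, 2.02, 1.84 and 2.29, and the leucine-rich repeat kinase AT1G51850 had 1.76, 1.5, 1.63 and 1.63.

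Enzymes of lipid, nitrogen and phosphorus metabolism and a few others gave 13 members, with a median mean fold of 2.71. GSR2, a cytosolic glutamine synthetase that fixes ammonium, had 556, 409, 552 and 591 FPKM at 4 days and 300.3, 237, 269 and 275 FPKM at 8 days. AT5G44020, an acid phosphatase of the HAD superfamily, had 539, 421, 486 and 443 FPKM at 4 days and 287, 241, 245 and 252 FPKM at 8 days, and its folds were among the 5 most equal. SRG3, a glycerophosphodiester phosphodiesterase, had 44.7, 51.8, 40.3 and 46.4 FPKM at 4 days and 16.5, 25.8, 22.4 and 26.7 FPKM at 8 days, but overlaps AT3G02030 on the opposite strand over 681 bases. The 4-day levels of SRG3 and AT5G44020 differed little between the groups, at 40.3 to 51.8 and 421 to 539 FPKM.

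AT5G56100 (chromosome 5, 22716917 to 22717849, plus strand), annotated as a glycine-rich protein or oleosin, the family that coats oil bodies, had 6.71, 14.6, 4.45 and 29.6 FPKM at 4 days and 1.86, 1.94, 1.02 and 1.81 FPKM at 8 days. The flight groups at 4 days were above the ground groups in each genotype, and its fold was among the 5 most unequal. DOX1, an alpha-dioxygenase of fatty acids, had 161, 130.4, 153 and 198 FPKM at 4 days and 72.9, 45.5, 92.4 and 74.1 FPKM at 8 days. PDX1.1, of vitamin B6 synthesis, had folds of 2.80, 2.38, 3.39 and 3.17, although 469 of its bases are identical to PDX1L4. AT3G02620, a desaturase of acyl chains on carrier protein, had 2.80, 1.85, 4.61 and 2.26, and AT4G33120, a methyltransferase, 4.81, 2.28, 3.78 and 2.42. AT5G48430, an aspartyl protease, had 4.24, 3.08, 3.75 and 3.04 FPKM at 4 days and 1.21, 0.821, 0.344 and 0.639 FPKM at 8 days.

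The remaining 17 members had no shared role. AT1G09310, a protein of unknown function with a DUF538 domain, had 69.2, 56.2, 50.6 and 80.7 FPKM at 4 days and 6.86, 4.56, 9.74 and 5.36 FPKM at 8 days. AT2G04460, annotated as a pseudogene, had 37.0, 38.4, 33.8 and 49.1 FPKM at 4 days and 1.28, 5.40, 3.12 and 9.67 FPKM at 8 days, and its folds were the most unequal of all, 28.9 in ground Col-0 against 5.07 in flight Sku6. MLP168, a major-latex-like protein, had 9.45, 5.72, 5.09 and 10.3 FPKM at 4 days and 0.793, 0.702, 1.21 and 1.23 FPKM at 8 days. AT2G25510, an uncharacterised protein, had 36.9, 40.5, 103 and 85.2 FPKM at 4 days and 17.4, 8.95, 27.1 and 19.7 FPKM at 8 days, with the Sku6 groups above the Col-0 groups on the same ground or flight setting at each age. HIR2, a membrane protein of the hypersensitive-induced-reaction family, had 114, 121, 98.6 and 217 FPKM at 4 days and 73.5, 67.0, 56.9 and 87.3 FPKM at 8 days. AT1G45015, with an MD-2-related lipid recognition domain, had folds of 4.77, 2.54, 3.95 and 2.52.

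Flight and ground roots were set against each other within each genotype at each age, and 47 of the 82 members (57.3%) were listed in at least 1 of these 4 tables. The flight tables share all their samples with the age tables, so they are a further reading of the same pools. In Col-0 at 4 days 7 members were listed as higher and 9 as lower in flight in the authors' deposited table, where 7.21% of all loci tested were listed in either direction and the members' share was 19.5%. In Col-0 at 8 days 4 were higher and 13 lower, a share of 20.7% against 4.05%. In Sku6 at 4 days 19 were higher and 8 lower, a share of 32.9% against 4.45%, and at 8 days 5 were higher and 2 lower, 8.54% against 2.51%. Loci already listed in all 4 age tables had shares of 24.7%, 34.6%, 21.9% and 18.8% in the same order, and 56.6% of them were in at least 1 flight table. By direction, the background was 3.10% higher and 4.11% lower in Col-0 at 4 days, 1.26% and 2.80% in Col-0 at 8 days, 2.18% and 2.28% in Sku6 at 4 days, and 1.08% and 1.43% in Sku6 at 8 days. The members' shares were 8.54% higher and 11.0% lower, 4.88% and 15.9%, 23.2% and 9.76%, and 6.10% and 2.44% in the same order. For the 442 loci listed in all 4 age tables they were 3.39% and 21.3%, 3.17% and 31.4%, 11.3% and 10.6%, and 4.98% and 13.8%.

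Sku6 at 4 days was thus the setting with the most members higher in flight. ICL was listed at 16.9 FPKM in flight against 3.54 on the ground there (deposited log2 2.25, q = 0.00228) and at 12.7 against 4.29 in Col-0 (log2 1.57, q = 0.00185), in the authors' deposited tables. AT5G56100 was at 28.8 against 4.32 FPKM in Sku6 (log2 2.74, q = 0.00228) and 14.1 against 6.57 in Col-0 (log2 1.1, q = 0.0154) in the same authors' deposited tables. Neither was listed at 8 days. Also listed as higher in flight in Sku6 at 4 days were 3 photorespiratory members in the authors' deposited table, AGT (log2 1.05), GOX1 (0.91) and GOX2 (0.59), none of which was listed in Col-0. Of the other genes on the photorespiration list, GDCH (0.93) was higher and DIT1 (-0.66) was lower in the same authors' deposited table. Of the 14 shoot tissue genes, 3 were listed as higher and 1 as lower in flight in the same authors' deposited table. RBCS1B (log2 1.07), RBCS2B (1.42) and RBCS3B (0.94) were higher and LHCB2.1 (-1.12) was lower. GAPB (0.66), of the carbon fixation list, was higher in the same authors' deposited table. In Col-0 at 4 days GAPB (-0.56), SHM1 (-0.57) and DIT1 (-0.63) were lower in flight in the authors' deposited table. No gene of the photorespiration list was listed as higher there. The part of these genes in the differences of the members was not tested.

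RMA2 was the member listed as higher in flight in 3 tables. In the authors' deposited tables it stood at 53.0 against 25.9 FPKM in Col-0 at 4 days (log2 1.03, q = 0.00185), 94.1 against 25.3 in Sku6 at 4 days (log2 1.89, q = 0.00228) and 26.9 against 13.2 in Sku6 at 8 days (log2 1.02, q = 0.00373). TI1 was higher in flight at 4 days in both genotypes, with a deposited log2 of 0.82 in Col-0 and 1.65 in Sku6 in the authors' deposited tables. LTP2 (0.61 and 0.51) and RD22 (0.65 and 0.80) were also higher in both at that age in the authors' deposited tables. ECS1 (1.49), NIP3;1 (1.18) and HIR2 (1.14) were listed as higher at 4 days in Sku6 and not in Col-0, in the authors' deposited tables, and the difference between the genotypes was not tested.

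TIP2;3 was the member listed as lower in flight in all 4 tables. In the authors' deposited tables it was at 60.8 against 192 FPKM in Col-0 at 4 days (log2 -1.66, q = 0.00185), and the log2 was -0.95 in Col-0 at 8 days, -0.82 in Sku6 at 4 days and -0.63 in Sku6 at 8 days. CASP5 (log2 -1.23) was lower in flight in Col-0 at 4 days in the authors' deposited table. FLA13 (-1.16 in Col-0 and -0.52 in Sku6), AT1G45015 (-0.89 and -1.03) and AT3G02620 (-0.87 and -0.75) were lower in both genotypes at 4 days, in the authors' deposited tables. In Col-0 at 4 days 8 of the 11 endodermis and suberin genes, CASP5 included, were listed as lower in flight.

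At 8 days in Col-0, 13 members were listed as lower in flight and 4 as higher, against 139 lower and 14 higher of the 442 loci listed in all 4 age tables. AT1G73120 was at 1.78 FPKM in flight against 11.4 on the ground (log2 -2.68, q = 0.00263) in the authors' deposited table, the largest of any member in size apart from AT5G56100 in Sku6 at 4 days. AT3G59930 (log2 -0.87), UPI (-0.68), DOX1 (-0.70) and PEP7 (-0.49) were also lower in the authors' deposited table. Of the 14 shoot tissue genes, 8 were listed as lower in flight in the same comparison, and their part in these differences was not tested. The pseudogene AT2G04460 was higher in flight at 8 days in both genotypes, with 5.53 against 1.33 FPKM (log2 2.06, q = 0.0129) and 9.98 against 3.21 FPKM (log2 1.64, q = 0.00373) in the authors' deposited tables. AT2G39530, AT4G33120 and UPI were listed in both directions, in different settings.

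**Figure D4:**
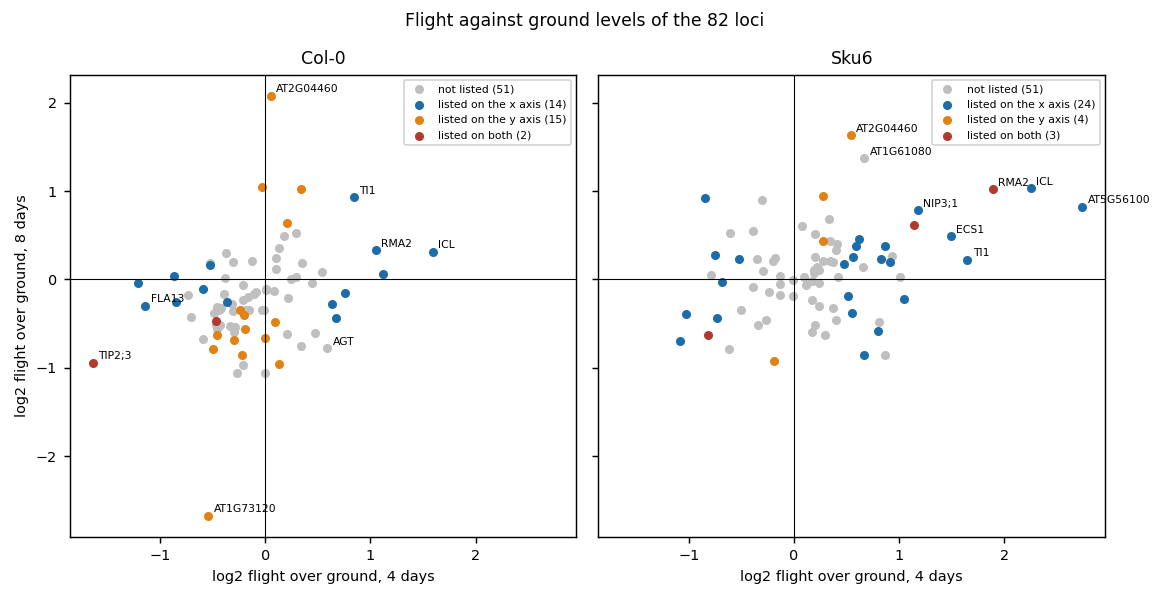
Log2 of the flight over the ground group level at 4 days (x) and 8 days (y) for the 82 loci in Col-0 (left) and Sku6 (right), computed from the group levels of the age tables, with colours for loci listed in the authors' flight tables. Among listed loci, TIP2;3 lies at the lower left in Col-0 and ICL, RMA2 and AT5G56100 lie at the right in Sku6.

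The group levels also allow a ratio for every member, listed or not. The median log2 of flight over ground was -0.19 in Col-0 at 4 days, -0.27 in Col-0 at 8 days, 0.24 in Sku6 at 4 days and 0.11 in Sku6 at 8 days. Over the 442 loci listed in all 4 age tables it was -0.23, -0.28, -0.02 and -0.10. Above 0 were 30, 24, 54 and 49 of the 82 members (36.6%, 29.3%, 65.9% and 59.8%), against 29.9%, 21.3%, 46.2% and 36.7% of the 442 loci. These medians and shares come from the age-table group values that the selection also used, have no replicate error and were not tested. Of the 442 loci, 268 were higher and 166 lower at 8 days in each age table. They are therefore not a set like the members.

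Sku6 was compared with Col-0 in each place and age, and 35 members (42.7%) were listed in at least 1 of these 4 tables, against 36.2% of the 442 loci listed in all 4 age tables. These tables, too, share all their samples with the age tables. On the ground at 4 days 9 members were higher and 6 lower in Sku6 in the authors' deposited table (18.3% of members, 2.93% of loci tested). In flight at 4 days 20 were higher and 2 lower (26.8% against 2.02%). On the ground at 8 days 4 were higher and 9 lower (15.9% against 1.34%), and in flight at 8 days 6 were higher and 2 lower (9.76% against 1.40%). The shares among the 442 loci listed in all 4 age tables were 14.3%, 13.1%, 12.4% and 12.2%. By direction, the background was 1.45% higher and 1.48% lower in Sku6 on the ground at 4 days, 1.55% and 0.473% in flight at 4 days, 0.729% and 0.608% on the ground at 8 days, and 1.03% and 0.371% in flight at 8 days. The members' shares were 11.0% higher and 7.32% lower, 24.4% and 2.44%, 4.88% and 11.0%, and 7.32% and 2.44% in the same order. For those 442 loci they were 3.62% and 10.6%, 11.5% and 1.58%, 4.52% and 7.92%, and 11.5% and 0.679%.

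AT5G41280 was the member listed as higher in Sku6 in all 4 tables. In the authors' deposited tables it was at 17.6 against 6.69 FPKM on the ground at 4 days (log2 1.40, q = 0.00409), 19.8 against 9.17 in flight at 4 days (log2 1.11, q = 0.00499), 6.36 against 2.29 on the ground at 8 days (log2 1.48, q = 0.0110) and 4.29 against 1.49 in flight at 8 days (log2 1.52, q = 0.0316). AT2G25510 was higher in Sku6 in 3 tables, with a deposited log2 of 1.48 on the ground at 4 days, 1.1 in flight at 4 days and 1.17 in flight at 8 days in the authors' deposited tables. The receptor-kinase-related protein and the uncharacterised one thus kept a higher group level in Sku6 while falling with age in each line.

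Several genes of the cell surface were listed as lower in Sku6. AT2G39530 was lower in Sku6 on the ground at 4 days (log2 -1.27, q = 0.00409) and 8 days (log2 -1.19, q = 0.00610) and in flight at 8 days (log2 -0.54, q = 0.00750) in the authors' deposited tables. FLA13 (log2 -0.89, -0.97 and -0.43) was lower in the same 3 authors' deposited tables. AT2G45180 was lower on the ground at both ages and in flight at 4 days (-0.62, -0.59 and -0.42), and RHS19 on the ground at both ages (-0.55 and -0.51), in the authors' deposited tables. Of the 12 cell surface members, 4 were listed as lower and none as higher in Sku6 on the ground at 4 days, where 1.48% of loci tested were lower, and 5 as lower and none as higher on the ground at 8 days, where 0.608% were lower. This role group was put together by hand after the members had been seen. One of its genes, AT4G00165, was higher in Sku6 in flight at 4 days (log2 0.72) in the authors' deposited table. On the ground at 4 days markers of differentiated root tissue were also listed as lower in Sku6, 3 of 11 for endodermis and suberin (ESB1, GPAT5 and CYP86A1) and 3 of 8 for xylem (XCP2, LAC4 and LAC17), and their part in these differences was not tested.

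In flight at 4 days the members listed as higher in Sku6 came from all 8 role groups. ECS1 was at 36.2 against 12.1 FPKM (log2 1.58, q = 0.00499) and PP2-B2, of the phloem protein 2 family, at 12.8 against 5.13 FPKM (log2 1.32, q = 0.00499) in the authors' deposited table. GOX1 (log2 0.82), FBA2 (0.81), UPI (0.74) and RMA2 (0.84) were listed there as well, in the authors' deposited table. In the same comparison 8 of the 14 shoot tissue genes were listed as higher in Sku6, and their part in these differences was not tested. On the ground at 8 days the direction was mixed, with TI1 higher (log2 1.2, q = 0.0152) and AT1G54890, a late-embryogenesis-abundant-like protein, lower (log2 -1.21, q = 0.00610) in the authors' deposited table. There 6 of the 14 shoot tissue genes were listed as lower in Sku6 and none as higher, and their part was not tested. AT1G73120 was higher in Sku6 in flight at 8 days, at 9.15 against 1.78 FPKM (log2 2.36, q = 0.0130) in the authors' deposited table, a comparison that rests on the low flight Col-0 level already given.

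**Figure D5:**
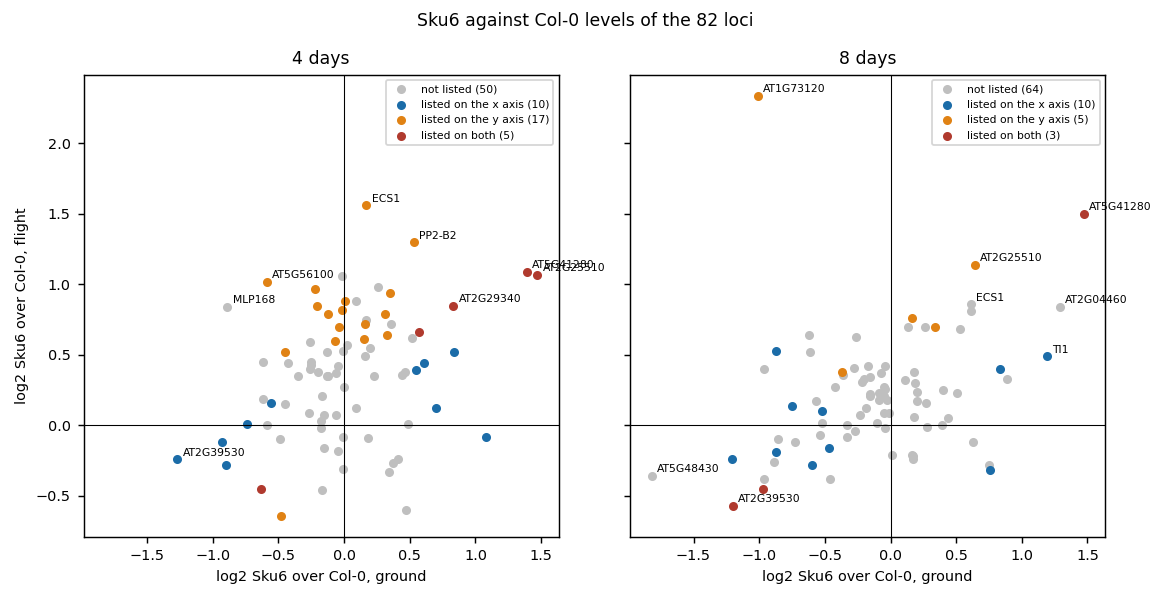
Log2 of the Sku6 over the Col-0 group level on the ground (x) and in flight (y) for the 82 loci at 4 days (left) and 8 days (right), computed from the group levels of the age tables, with colours for loci listed in the authors' genotype tables. AT5G41280 is at the upper right in both panels, AT2G39530 is at the left in both, and at 4 days most points lie above 0 on the flight axis.

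Over all members the median log2 of Sku6 over Col-0 was -0.03 on the ground at 4 days, 0.40 in flight at 4 days, -0.08 on the ground at 8 days and 0.20 in flight at 8 days. Above 0 were 36, 64, 32 and 57 of the 82 (43.9%, 78.0%, 39.0% and 69.5%). The shares above 0 over the 442 loci listed in all 4 age tables were 35.1%, 53.2%, 50.5% and 67.0%. The medians over the 442 loci listed in all 4 age tables were -0.14, 0.03, 0.00 and 0.13. These medians and shares, too, come from the group values that the selection used, and most of the 442 loci rose with age. They were not tested. In neither the flight nor the genotype tables were 28 members, among them GSR2, MLP168, HPR, RCA, GRP3S/GRP-3, UGT74F2 and CCP3.

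Features that the selection did not use were examined next. The members lay on all 5 chromosomes, with 20, 22, 13, 8 and 19 on chromosomes 1 to 5. Adjacent member loci were 2 pairs, GOX2 with GOX1, and UPI with AT5G43590 (an acyl hydrolase of 468 residues), which lie 365 bases apart on the minus strand of chromosome 5. UPI and AT5G43590 had mean 4-day levels of 471 and 2.66 FPKM and mean folds of 3.31 and 3.71. Of the members 78 were protein coding, and the other 4 were AT1G67105, a non-coding RNA, and the pseudogenes AT2G04110, AT5G36270 and AT2G04460. Reads could be shared with a near-identical gene copy for 9 members, which are ECS1, NIP3;1, AT2G04460, PDX1.1, UGT74F2, AT3G02620, AT3G59930, AT5G05060 and AER. In addition, 12 member genes overlap an annotated gene on the opposite strand, over 333 to 681 bases for AT2G39518, HIR2, AT2G19060, AT5G44585, AT4G00165 and SRG3.

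The median length of 81 member proteins was 310.0 residues, against 348 over all coding genes and 325 over genes in any age table. At most 150 residues long were 20 of the 81 (24.7%), against 16.3% of all coding genes and 15.7% of genes in any age table. By annotation keywords, defence and latex-like proteins were 7 members (8.54%, against 1.2% of loci in any age table), lipid transfer proteins and GDSL-type lipases 4 (4.88% against 1.41%) and transporters 5 (6.10% against 2.89%). The defence keywords also took in protease inhibitors, cystatins and elicitor peptides, and the transporter keywords were likewise wider than first planned. A class whose words are widened can gain members by that step. These shares were not tested and are no independent evidence.

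The motifs marked in the upstream sequences were counted in the same 250-base window of every coding gene. TATAAA was in 39 of 81 member windows (48.1%) and 47.3% of 27443 windows of all coding genes. CACGTG was in 6.17% against 6.49%, CATGCA in 8.64% against 8.43%, TTGACC in 11.1% against 12.2%, TGGGCC in 7.41% against 13.7% and AAACCCTA in 1.23% against 4.49%. ACGTGGC was in 7 windows (8.64%, with a 95% Wilson interval of 4.25 to 16.8) against 3.37% of all, and the genes were HPR, AT1G73120, SRG3, AT4G00165, RMA2, SNRK2.7 and RHS19. The 95% Wilson intervals of the other shares were 2.67 to 13.6 for CACGTG, 4.25 to 16.8 for CATGCA and 5.96 to 19.8 for TTGACC. They were 3.44 to 15.2 for TGGGCC, 0.218 to 6.67 for AAACCCTA and 37.6 to 58.9 for TATAAA. Both strands were searched in every window, and none of these shares was tested.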

How the data were processed

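The 32 root samples (8 groups of 4) were sequenced as RNA. The submitters' processing notes name STAR 2.5.1b, Cufflinks and Cuffdiff, with Trimmomatic 0.36, Picard and FastQC 0.11.2, and the TAIR10 build. Their order, their settings and any use of strand are details not given in the sources used here. Libraries were made with a SMART-Seq v4 kit from 10 ng of RNA, per the labels' protocols. Per the file headers, each of the 12 deposited tables sets 1 group against another and holds 2 group values in FPKM, their log2 ratio, a p-value and its adjusted q-value. No entry has a q-value above 0.05, and the lowest deposited p-value is 5.00e-05, which many members share. An unlisted locus is not shown to be unchanged.

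Folds were computed from the deposited FPKM values. No test was added, since the files give no value per sample. Loci tested per table (19464 to 20035) were worked back from p- and q-values, a step checked on simulated p-values. The 12 tables were scaled separately, and 214 group values of members found in more than 1 table differed by up to 1.04-fold, so ratios set across tables carry that difference. A table of a comparison was used for each call.

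Gene names, positions and upstream bases came from RefSeq TAIR10.1, and all 85 gene identifiers of the members overlapped their locus. Some loci ran far beyond the named gene, among them those of GSR2, AT2G22122 and AT2G29995. The GSR2 locus spans 24655172 to 24695583 on chromosome 1, and the gene ends at 24657703. Levels of such loci may include reads from outside the named gene. Copies were sought with blastn 2.17.0 (at least 90% identity over 200 bases or more), and 9 member loci had one. In addition, 12 member genes overlap an antisense gene. Tables were handled in Python 3.11.15 with pandas 2.3.3.

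The members, the gene lists, the role groups, the class keywords and the motifs were chosen with earlier results of these data known. Role groups were assigned by hand after the members had been seen. Genes were named by a rule: the 15 members with the highest smallest fold among those with 5 FPKM or more at 4 days in every table, the 10 most abundant, the 5 most and the 5 least unequal in fold, 3 on each side of the threshold, 4 per flight and genotype table with the largest difference, every member of a keyword class of 3 to 8, adjacent members and up to 4 examples per list. Other members were named for their role after their values were seen. Further alternatives in fold, expression, merging and motif window are in the closing section. A printed 95% interval is a Wilson interval and covers counting error only.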

Additional observations from a re-analysis of the deposited data

How the results depend on the processing

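The number of members depended on the fold required, with 140 at a looser fold and 36 at 2-fold against 82 at 1.5-fold, and was 128 where the ground Col-0 table was not required. Of the 82, members listed in a flight table numbered 47, or 16 where a deposited log2 of at least 1 was required and 18 where only the 2-fold members were counted. The matching numbers for Sku6 against Col-0 were 35, 10 and 13. With 1 FPKM added to each level, the median fold became 2.07 in ground Col-0, 2.16 in flight Col-0 and 2.34 in ground Sku6. In 100-base windows the share of members with TGGGCC was 1.23% (8.81% of all coding genes) and that with TATAAA 24.7% (25.8%). In the same windows ACGTGGC was in 4.94% (1.97%), CATGCA in 4.94% (3.10%), CACGTG in 3.70% (3.61%) and TTGACC in 6.17% (5.31%), each over 1.5 times below its share in 250 bases. The 100-base window lies inside the 250-base window, so a share could not rise. The shares over all coding genes were lower in it as well. With 1 FPKM added, 5 members fell under 1.5-fold in a table (AT1G44050, AT1G51850, AT2G29340, UGT71C2 and AT2G21840), and a fold of 15 shrank by over 1.5 times, among them ECS1, MLP168, AT1G73120, AT2G04460, GOX1, AT5G41280, AT5G56100, PMDH2 and UGT76E2. The other settings tried for the numbers of members, of members in a flight table and of members in a genotype table stayed within 1.5 times of those reported. No paired analysis was possible because the tables give no value per sample, and for the same reason no replicate could be left out in turn.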
